A study of Mus musculus with 6 samples.

Results

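Phosphatidylcholine is the main phospholipid of mammalian membranes, and the genes described here encode 10 enzymes that make or remodel it, namely Pcyt1a, Chka, Chkb, Chpt1, Cept1, Pemt, Lpcat1, Lpcat2, Lpcat3 and Lpcat4. They were taken by gene symbol from the array annotation, with earlier results of these data known, and all 10 of 10 were found among the 19505 named genes of the arrays. Pemt carried 5 probe sets, of which the one with the highest mean was used, and each other gene carried 1.

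The arrays compared exosomes of 2 kinds in C57BL/6J mice. L-Exo were CD63+A33+ exosomes from the feces of lean mice on a regular chow diet, and H-Exo were the same fraction from mice kept on a high-fat diet (HFD) for 12 months. Recipient mice, bought as males of 8 to 12 weeks, were on HFD in both groups and were gavaged with 2000000000 exosomes a day for 14 days, after which RNA was taken from tissue labelled liver. There were 3 arrays of L-Exo and 3 of H-Exo recipients, with no PBS or untreated arrays among them, and since the fecal pellets were pooled from 10 mice each exosome preparation stands for a pool of donors. Whether each sample is a recipient of its own is not stated in the sources used here, so p-values measure the spread between these samples, which may be technical.

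Most phosphatidylcholine is made by the Kennedy pathway, in which choline is phosphorylated, activated with CTP and joined to diacylglycerol. The liver has a second route, in which phosphatidylethanolamine is methylated in steps to phosphatidylcholine. Once made, phosphatidylcholine exchanges its acyl chains in the Lands cycle, where a phospholipase removes a chain and a lysophosphatidylcholine acyltransferase (LPCAT) puts another back. In the small intestine this remodelling is known to serve the absorption of dietary fat and the packing of chylomicrons.

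The labelled tissue was checked before the enzymes were read. A value was counted as above background where it exceeded 95% of the negative control probes on its own array, which lay between 7.97 and 8.41 on the log2 scale of the deposited values. Of 10 measured hepatocyte markers 2 were above it on all 6 arrays, Cps1 and Hpd, and 7 on none, among them Ttr, Fga, Fgb and Ahsg, while Alb was above it on the 3 L-Exo arrays alone. Of 12 markers of the small intestinal epithelium 10 were above it on all 6 arrays, Vil1 and Sis among them, as were 6 of 6 Paneth and goblet cell markers and 5 of 5 smooth muscle markers. The exceptions on the intestinal list were Lct, above background on no array, and Cdx1, above it on 5. Most hepatocyte markers were thus at background and most intestinal markers were not, and the values below are those of arrays labelled liver, not of liver expression. L-Exo replicate 1 and H-Exo replicate 1 had the lowest mean correlation with the other arrays, 0.951 and 0.963, against 0.972 to 0.975 for H-Exo replicates 2 and 3 and L-Exo replicate 2 and 0.971 for L-Exo replicate 3. Their smooth muscle medians were the highest of the 6, at 18.47 and 17.97 on the log2 scale, where the others ran from 14.74 to 16.15.

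**Figure D1:**
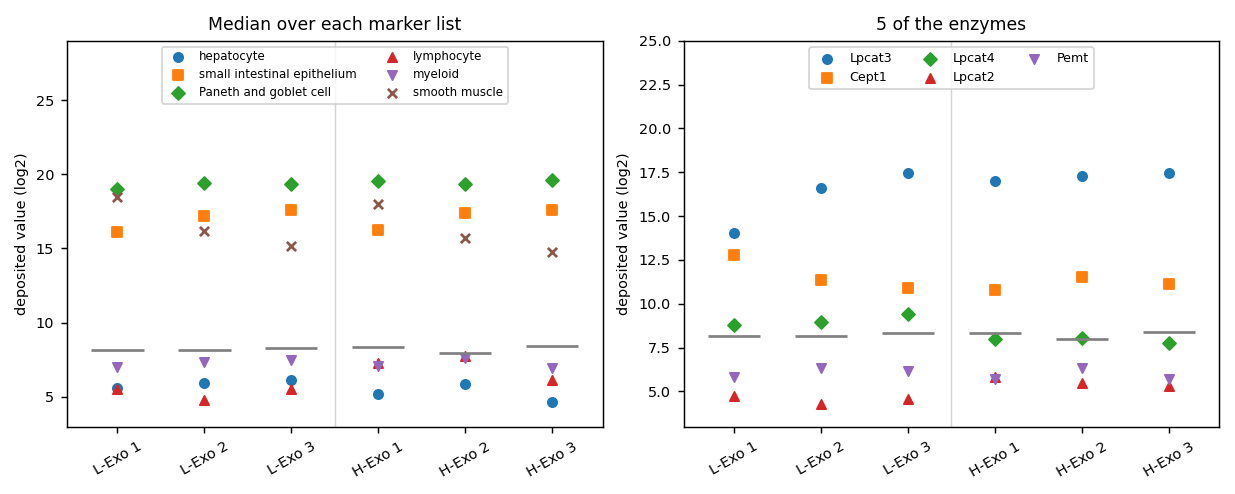
Log2 values on each of the 6 arrays, with the median over each of 6 marker lists on the left and 5 of the enzymes on the right; grey bars mark the 95th percentile of the negative controls of each array. Medians of epithelial and of Paneth and goblet cell markers lie far above the bars on all 6 arrays, hepatocyte medians (4.64 to 6.14) below them, and smooth muscle is highest on both replicate 1 arrays.

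Of the 10 enzymes 4 lay above background on all 6 arrays (Pcyt1a, Chpt1, Cept1 and Lpcat3), 3 on some (Chka, Chkb and Lpcat4) and 3 on none (Pemt, Lpcat1 and Lpcat2), where 19.1% of all named genes were above it throughout and 69.1% on no array. The Kennedy pathway from the CTP-dependent step onward and 1 of the 4 acyltransferases were therefore read above background on all 6 arrays, and the methylation route was not. With the 99th percentile of the negative controls as background, Lpcat3 alone remained so. Probe sets differ in how they bind, so values are compared between arrays and not between genes. By limma, fitted on all 22206 gene probe sets, 0 of the 10 had an adjusted p under 0.05, as had 0% of all probe sets, and 2 of the 10 were under 0.05 before adjustment. These 2 were Lpcat2, higher in H-Exo, and Lpcat4, lower, beside 4.06% of all probe sets before adjustment (2.32% up and 1.74% down). The 2 groups of arrays did not overlap for the same 2 genes, beside 9.61% of all probe sets (4.9% up and 4.71% down with H-Exo). In sign, 5 of the 10 were higher in H-Exo and 5 lower, the median of their log2 differences being 0.03, where 48.9% of all probe sets were higher and 51.1% lower. In tissue RNA, fewer cells of a type and less RNA per cell cannot be told apart, which holds for every difference below.

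**Figure D2:**
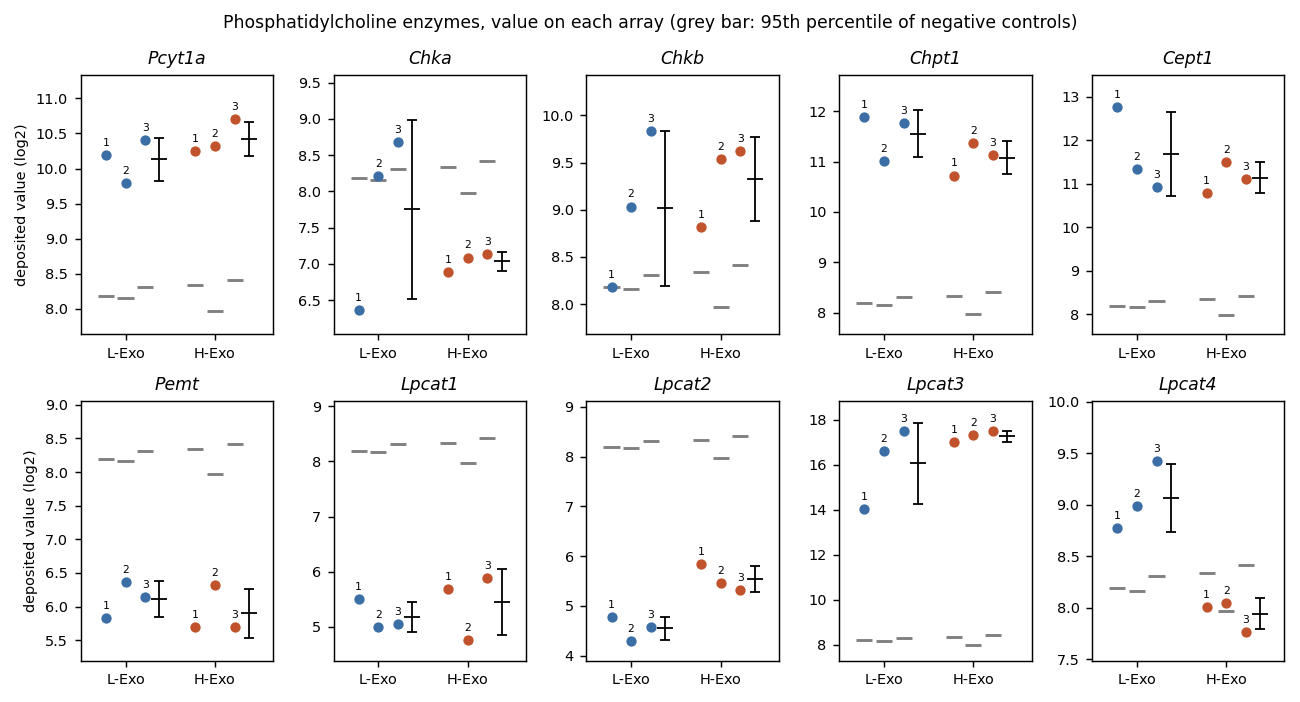
Value of each enzyme on each array (log2, 1 panel per gene with its own axis), with the replicate number above each point, the mean ± SD of each group in black (n = 3) and grey bars for the 95th percentile of the negative controls of that array. Lpcat2 and Lpcat4 are the panels whose groups do not overlap, and Lpcat2, Lpcat1 and Pemt lie below the grey bars on all 6 arrays.

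The stretches upstream of 4 of these genes are shown. Lpcat2 and Lpcat4 were chosen as the members whose groups did not overlap, though neither passed the adjusted test and Lpcat2 lay within background, Lpcat3 as a member read far above background, and Pemt as the gene of the methylation route, likewise within background. Each stretch is the 250 bases before a transcription start in RefSeq, build GRCm38.p6, on the strand of the gene, and Pemt is shown at both of its annotated starts. Capitals mark the core that the aryl hydrocarbon receptor (AhR), the receptor at the centre of the study, is known to bind in DNA, GCGTG on either strand (CACGC on the other).
Lpcat2, chr8:92855083-92855332, plus strand: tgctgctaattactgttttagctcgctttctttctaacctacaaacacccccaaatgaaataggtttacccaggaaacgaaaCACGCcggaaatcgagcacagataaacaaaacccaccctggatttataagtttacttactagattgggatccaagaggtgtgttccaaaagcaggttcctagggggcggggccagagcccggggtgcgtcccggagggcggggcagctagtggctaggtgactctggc
Lpcat4, chr2:112239591-112239840, plus strand: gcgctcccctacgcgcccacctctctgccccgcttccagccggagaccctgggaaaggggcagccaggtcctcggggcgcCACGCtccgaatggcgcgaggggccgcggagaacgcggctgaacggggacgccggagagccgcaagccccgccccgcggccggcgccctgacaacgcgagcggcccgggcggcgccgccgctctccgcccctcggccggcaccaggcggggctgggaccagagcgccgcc
Lpcat3, chr6:124662854-124663103, plus strand: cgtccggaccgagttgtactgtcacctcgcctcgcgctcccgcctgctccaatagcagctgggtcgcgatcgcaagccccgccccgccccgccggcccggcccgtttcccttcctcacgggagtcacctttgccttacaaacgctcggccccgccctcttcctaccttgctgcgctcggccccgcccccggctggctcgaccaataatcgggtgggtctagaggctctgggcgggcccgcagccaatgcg
Pemt, chr11:60040189-60040438, minus strand: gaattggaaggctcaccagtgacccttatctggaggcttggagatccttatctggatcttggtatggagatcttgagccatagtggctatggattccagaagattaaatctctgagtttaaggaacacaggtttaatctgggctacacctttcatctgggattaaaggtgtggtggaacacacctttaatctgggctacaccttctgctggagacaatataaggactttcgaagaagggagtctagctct
Pemt, chr11:60037006-60037255, minus strand: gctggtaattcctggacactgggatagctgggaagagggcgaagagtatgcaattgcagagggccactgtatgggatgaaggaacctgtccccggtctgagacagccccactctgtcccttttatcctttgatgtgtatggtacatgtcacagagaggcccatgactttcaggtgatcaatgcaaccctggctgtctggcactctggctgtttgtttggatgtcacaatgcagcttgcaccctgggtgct

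Lpcat2 and Lpcat4 each held 1 match, which began 168 and 170 bases before the start, and neither Lpcat3 nor Pemt held one. Of the 10 genes 5 had a match in at least 1 annotated window (Pcyt1a, Chka, Lpcat1, Lpcat2 and Lpcat4), against 30.9% of 27025 genes with windows of the same length. The GC box GGGCGG was found on either strand for 9 of the 10 genes, Pemt being the one without it, against 35.4% of all genes, and in the Lpcat1 window it shared 1 base with the AhR core. The CCAAT box, searched as ATTGG on either strand, was found for 6 of the 10 against 37.5%. Both windows of Pemt had less G and C (44.8% and 52.8%) than those of Lpcat3 (70%) and Lpcat4 (79.6%), and that of Lpcat2 had 51.2%. A match of a few letters is a description of the window and not a binding site.

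Choline kinase performs the first step of the Kennedy pathway and is encoded by Chka and Chkb. Chka had log2 values of 6.36, 8.21 and 8.68 on the L-Exo arrays 1 to 3 and of 6.89, 7.09 and 7.13 on the H-Exo arrays 1 to 3. The H-Exo arrays were close together and below background on all 3, and the L-Exo arrays lay on both sides of them, above background on 2. The L-Exo mean was 7.75 ± 1.23 (SD, n = 3) and the H-Exo mean 7.04 ± 0.13 (SD, n = 3), a log2 difference of -0.71 (standard error 0.54, 95% interval -1.93 to 0.50, limma adjusted p = 0.988). With H-Exo at background on every array no fold is given. This difference was -1.41 without L-Exo replicate 1, the lowest array of all, -1.34 without both replicate 1 arrays and -0.25 without L-Exo replicate 3.

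Chkb, whose product also acts on ethanolamine and whose loss in mice causes muscular dystrophy, was at 8.19, 9.03 and 9.83 in L-Exo and 8.81, 9.54 and 9.62 in H-Exo. It lay above background on 5 arrays and equalled it, to 2 decimals, on L-Exo replicate 1. The groups overlapped almost entirely, with a log2 difference of 0.31 (standard error 0.44, 95% interval -0.69 to 1.31, limma adjusted p = 0.989). The sign turned without L-Exo replicate 1 (-0.11), and the value was 0.71 without L-Exo replicate 3. The 2 kinases thus had differences of opposite sign, neither of which passed the test, and a difference between them was not tested.

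Pcyt1a encodes CCT alpha, which activates phosphocholine with CTP in the step that sets the pace of the Kennedy pathway. Its log2 values were 10.20, 9.79 and 10.40 in L-Exo and 10.25, 10.32 and 10.70 in H-Exo. All 6 arrays lay above background, by 1.63 at the least, and they spanned less than 1 log2 unit in all. The difference of 0.29 (standard error 0.31, 95% interval -0.40 to 0.98, limma adjusted p = 0.988; two-sided exact permutation p = 0.4) was within the spread of the arrays, and it ran from 0.12 with L-Exo replicate 2 left out to 0.43 with L-Exo replicate 3 left out, with 0.15 when H-Exo replicate 3 was left out and 0.46 with array weights. Pcyt1b, which encodes the beta form, was below background on all 6 arrays, with a log2 difference of -0.09 (standard error 0.28).

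The last step, the transfer of phosphocholine to diacylglycerol, is carried out by CHPT1 and by CEPT1, which also makes phosphatidylethanolamine. Chpt1 was at 11.88, 11.02 and 11.76 in L-Exo and at 10.72, 11.37 and 11.13 in H-Exo, above background on all 6 arrays. The groups overlapped, with 2 L-Exo arrays above every H-Exo array and 1 among them. The means were 11.55 ± 0.47 (SD, n = 3) and 11.07 ± 0.33 (SD, n = 3), a log2 difference of -0.48 (standard error 0.34, 95% interval -1.25 to 0.30, limma adjusted p = 0.988). It was -0.75 without L-Exo replicate 2, -0.30 when H-Exo replicate 1 was left out and -0.31 when L-Exo replicate 1 was. Without both replicate 1 arrays it was -0.14, and with limma's array weights -0.06.

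Cept1 was at 12.77, 11.34 and 10.92 in L-Exo and at 10.79, 11.51 and 11.12 in H-Exo. One array, L-Exo replicate 1, stood above the other 5, which lay within 1 log2 unit of each other in no order by group. The log2 difference of -0.54 (standard error 0.47, 95% interval -1.61 to 0.53, limma adjusted p = 0.988) was 0.00557 without that array and 0.18 without both replicate 1 arrays, -0.92 without L-Exo replicate 3 and -0.09 with array weights. The smooth muscle marker median was highest on the same array (18.47). It was next highest on H-Exo replicate 1 (17.97), where Cept1 had its lowest value, 10.79. The part of smooth muscle in the Cept1 value was not tested.

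Pemt encodes phosphatidylethanolamine N-methyltransferase, which carries out the methylation route and is known chiefly from hepatocytes. Its log2 values were 5.84, 6.37 and 6.14 in L-Exo and 5.69, 6.32 and 5.70 in H-Exo. Every array was below background, and between 58.1% and 78.7% of the negative control probes of the same array lay below the Pemt value. The difference was -0.21 (standard error 0.32, 95% interval -0.92 to 0.50, limma adjusted p = 0.989), and it was -0.42 without H-Exo replicate 2, -0.35 without L-Exo replicate 1, and between -0.09 and -0.11 without L-Exo replicate 2, H-Exo replicate 1 or H-Exo replicate 3. The other 4 probe sets, each tied to another transcript of the gene, were below background on all 6 arrays as well, with means of 4.82 to 5.25. Their differences ran from 0.16 to 0.26, against the sign of the first, so these arrays gave Pemt neither a readable level nor a direction. Hepatocyte marker medians ran from 5.58 to 6.14 with L-Exo and from 4.64 to 5.83 with H-Exo, and Alb, the albumin gene, had a log2 difference of -3.61 (standard error 0.61, limma adjusted p = 0.761). The part of hepatocytes in the Pemt value was not tested.

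Genes that surround this route were read in the same way. The list for choline oxidation and methyl supply holds several enzymes of the hepatocyte. Of its 9 measured genes 7 were below background on all 6 arrays, beside 69.1% of all named genes. These were Aldh7a1, Bhmt, Bhmt2, Dmgdh, Sardh, Gnmt and Mat1a, the last of which makes the methyl donor in liver. Those above it on all 6 were Ahcy, which clears the product of every methylation, and Chdh, the mitochondrial choline dehydrogenase. Ahcy had a log2 difference of -0.24 (standard error 0.29) and Chdh one of 0.46 (standard error 0.61), and neither passed the test.

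Lpcat3 encodes the acyltransferase that places polyunsaturated chains, linoleate and arachidonate, in phosphatidylcholine, and it is the member of the family known for its role in enterocytes and hepatocytes. It was at 14.04, 16.62 and 17.48 in L-Exo and at 16.99, 17.30 and 17.48 in H-Exo, above background by 5.86 to 9.32 on the log2 scale. All arrays but one lay between 16.62 and 17.48, and L-Exo replicate 1 stood alone below them. The means were 16.05 ± 1.79 (SD, n = 3) and 17.26 ± 0.25 (SD, n = 3), a log2 difference of 1.21 (standard error 0.74, 95% interval -0.45 to 2.86, limma adjusted p = 0.988; two-sided exact permutation p = 0.4). Without L-Exo replicate 1 it was 0.20, without both replicate 1 arrays 0.34, with array weights 0.68 and without L-Exo replicate 3 it was 1.92, so 1 array carried most of the difference. The epithelial marker median was lowest on that array, at 16.09, with 16.21 on H-Exo replicate 1 and 17.16 to 17.61 on the others, and the smooth muscle median was highest there. On H-Exo replicate 1 both medians were close to those of L-Exo replicate 1, and Lpcat3 was at 16.99. Single epithelial markers differed between the replicate 1 arrays in both directions. Vil1 was at 14.86 on L-Exo replicate 1 and 16.34 on H-Exo replicate 1, and Mep1a at 17.32 and 16.08. The part of tissue makeup in the Lpcat3 value was not tested.

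Lpcat4 prefers oleoyl chains and acts on lysophosphatidylethanolamine as well as lysophosphatidylcholine. Its log2 values were 8.78, 8.99 and 9.42 in L-Exo, above background on all 3 arrays, and 8.01, 8.05 and 7.77 in H-Exo, above background on 1. The lowest L-Exo value, 8.78, exceeded the highest H-Exo value, 8.05, so the groups did not overlap. The means were 9.06 ± 0.33 (SD, n = 3) and 7.94 ± 0.15 (SD, n = 3), so the log2 difference was -1.12 (standard error 0.30, 95% interval -1.80 to -0.45). No fold is given, since 2 of the 3 H-Exo arrays were at background. Lpcat4 had an unadjusted p of 0.00442 by limma and did not pass over all probe sets (limma adjusted p = 0.988; two-sided exact permutation p = 0.1, the smallest that 3 arrays against 3 allow). Leaving out any 1 array kept the difference between -1.26 and -0.94, and it was -1.30 without both replicate 1 arrays.

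Lpcat2 takes part in remodelling in inflammatory cells, where its product also makes platelet-activating factor. It was at 4.77, 4.30 and 4.57 in L-Exo and at 5.84, 5.46 and 5.33 in H-Exo. The lowest H-Exo value, 5.33, exceeded the highest L-Exo value, 4.77, yet all 6 were below background, with 22.3% to 36.3% of the negative control probes under the Lpcat2 value after L-Exo, and 48.8% to 64.5% after H-Exo. The log2 difference was 0.99 (standard error 0.30, 95% interval 0.32 to 1.67), with an unadjusted limma p of 0.00837 and an adjusted p of 0.988. The two-sided exact permutation p was 0.1, and leaving out 1 array kept the difference between 0.85 and 1.10. No fold is given for values inside the negative controls.

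Lymphocyte and myeloid markers were set beside Lpcat2, since the gene is known from inflammatory cells. Of 5 measured lymphocyte markers (Cd3d, Cd3e, Cd79a, Cd79b and Ms4a1) 5 were higher in H-Exo, with list medians of 4.82 to 5.53 on the L-Exo arrays and 6.13 to 7.78 on the H-Exo arrays, and each missed limma's adjusted threshold. All 5 had an unadjusted limma p under 0.05, beside 2.32% of all probe sets in that direction, and 4 had groups that did not overlap, beside 4.9%. For 3 of the 5 every array was below background, and none was above it on all 6. Of 4 measured myeloid markers 1 was higher and 3 lower, and medians ran from 7.04 to 7.48 with L-Exo and from 6.98 to 7.60 with H-Exo. Itgam, 1 of the 3 lower, had an unadjusted limma p of 0.031 and groups that did not overlap. In that direction 1.74% and 4.71% of all probe sets did so. Itgam was above background on 1 array, and Lyz2 alone was above it on all 6. The part of leukocytes in the Lpcat2 value was not tested.

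Lpcat1, best known from lung, where it makes the dipalmitoyl phosphatidylcholine of surfactant, was at 5.50, 4.997 and 5.05 in L-Exo and 5.68, 4.77 and 5.90 in H-Exo. All 6 arrays were below background and the groups overlapped, with the lowest of all values in H-Exo. The log2 difference was 0.27 (standard error 0.37, 95% interval -0.56 to 1.09, limma adjusted p = 0.988), and leaving out 1 H-Exo array put it anywhere from 0.04 (without replicate 3) to 0.61 (without replicate 2), and 0.15 without replicate 1; without L-Exo replicate 1 it was 0.42 and without L-Exo replicate 2 it was 0.17. Among the 4 acyltransferases, then, 3 were higher in H-Exo and 1 was lower, where 48.9% of all probe sets were higher. Of the 3, Lpcat1 and Lpcat2 lay below background on all 6 arrays, and 1 array carried most of the Lpcat3 difference. The lower one, Lpcat4, was the sole member of the family with separate groups and any array above background.

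**Figure D3:**
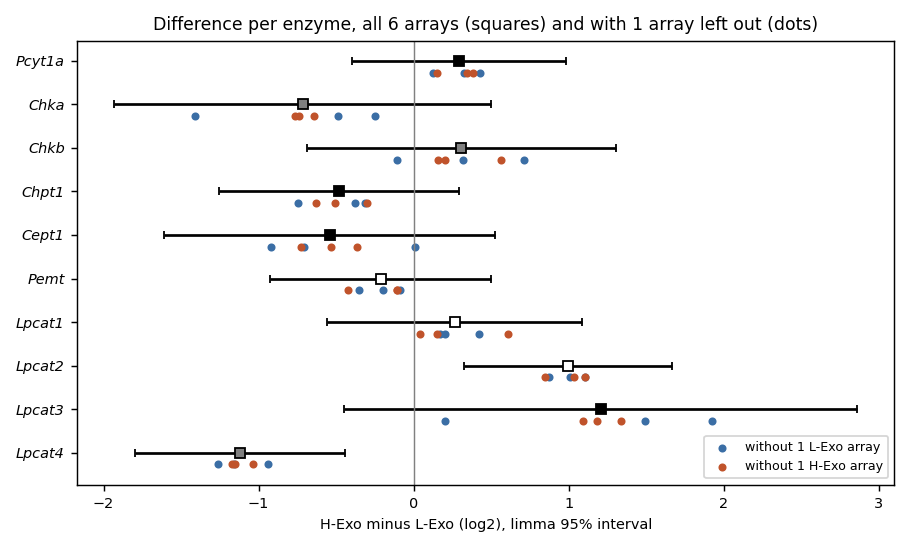
Log2 difference, H-Exo minus L-Exo, of each enzyme with its 95% interval from limma (squares) and the same difference with 1 array left out (dots). Squares are black where the gene was above background on all 6 arrays, grey on some and white on none; the intervals of Lpcat2 and Lpcat4 do not reach 0, while Chkb and Cept1 move across 0 when 1 L-Exo array is left out.

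The wider pathway was covered by 8 lists, of which 77 of 83 genes were measured, 24 of them above background throughout and 38 on no array. None of the 77 passed the test over all probe sets, 48 were higher and 29 lower after H-Exo (48.9% of all probe sets were higher), and their median difference on the log2 scale was 0.08, where that of all probe sets was -0.01. At an unadjusted limma p under 0.05 there were 4 of 77, namely Slc44a2, Lpin1 and Pla2g4c higher and Bhmt lower, beside 2.32% of all probe sets up and 1.74% down. Those of Slc44a2, Lpin1 and Bhmt were read at values below background on all 6 arrays.

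Among choline transporters 2 of 8 were above background on all 6 arrays. Slc44a1, the ubiquitous choline transporter-like protein, averaged 12.05 ± 0.14 (SD, n = 3) on the log2 scale after L-Exo and 12.02 ± 0.59 (SD, n = 3) after H-Exo, a difference of -0.03 (standard error 0.35). Slc44a4, which carries thiamine pyrophosphate in the colon, had a difference of 0.50 (standard error 0.53). Slc44a3, above background on 5 arrays, had one of 0.25 (standard error 0.40), and Flvcr1, above it on 4, one of -0.30 (standard error 0.76). Each of these differences was smaller than its standard error, and choline transport itself was not measured.

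In the list for phosphatidylethanolamine and phosphatidylserine, which also held Pcyt1b, 4 of 7 measured genes were above background on all 6 arrays. Selenoi, which encodes the ethanolamine counterpart of CHPT1, had a log2 difference of 0.08 (standard error 0.37), Pcyt2, which activates phosphoethanolamine with CTP, one of 0.03 (standard error 0.41), and Ptdss1, which makes phosphatidylserine from phosphatidylcholine, one of 0.09 (standard error 0.30). Etnk1, ethanolamine kinase, had separate groups by a narrow margin, the lowest L-Exo array being at 8.675 and the highest H-Exo array at 8.671, with a mean log2 difference of -0.33 (standard error 0.28, limma adjusted p = 0.988). No gene of this list passed the test in either direction.

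Of 12 genes in the list for diacylglycerol supply, which also held Dgat1 and Dgat2 as enzymes that use it up, 7 were above background on all 6 arrays, with 9 higher in H-Exo and 3 lower. Dgat2, which competes for diacylglycerol to make triglyceride, was at 9.61, 10.03 and 10.82 in L-Exo and 11.18, 10.50 and 11.44 in H-Exo. Its groups overlapped by 1 array, and the log2 difference was 0.89 (standard error 0.40, 95% interval -0.01 to 1.78, limma adjusted p = 0.988). Agpat2 and Agpat1, which make phosphatidic acid, differed by 0.37 (standard error 0.43) and by 0.11 (standard error 0.49), and Dgat1, the other enzyme of triglyceride synthesis, one of 0.15 (standard error 0.37).

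Other lysophospholipid acyltransferases were level by count, with 3 of 6 higher and 3 lower. Lclat1, which acts on lysocardiolipin, had a log2 difference of -0.24 (standard error 0.43) and Lpgat1 one of 0.49 (standard error 0.34). Mboat1, above background on 5 arrays, had one of -0.09 (standard error 0.38). None of these 6 had groups that did not overlap, beside 9.61% of all probe sets that had.

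Phospholipases A2 open the Lands cycle by removing a chain, and 2 of 16 measured were above background on all 6 arrays, Pla2g2a and Pnpla2, the second of which is better known as the triglyceride lipase of fat cells. Pnpla2 was at 10.41, 12.19 and 12.08 in L-Exo and 13.12, 11.98 and 12.75 in H-Exo, a log2 difference of 1.06 (standard error 0.51, limma adjusted p = 0.988) with overlapping groups. Pla2g2a had one of -0.66 (standard error 0.54). Pla2g4c, a cytosolic phospholipase A2 singled out here after its values were seen, was at 6.16, 8.40 and 9.23 in L-Exo and 19.88, 18.77 and 12.10 in H-Exo. Its groups did not overlap, and it did not pass the test (adjusted p = 0.941 by limma). No size is given, since L-Exo replicate 1 was below background and H-Exo replicate 1 at the ceiling of its array.

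Breakdown and transfer genes showed no difference that passed the test. Of 11 genes of phosphatidylcholine breakdown and sphingomyelin synthesis 3 were above background on all 6 arrays, with log2 differences of 0.09 (standard error 0.32) for Gdpd1, a lysophospholipase D, -0.26 (standard error 0.36) for Pld1, phospholipase D, and 0.05 (standard error 0.58) for Sgms2, a sphingomyelin synthase that uses phosphatidylcholine as its donor. Of 8 genes of transfer and export 2 were above it on all 6. They were Mttp, which loads lipid onto apolipoprotein B (0.09, standard error 0.54), and Stard10, which binds phosphatidylcholine (-0.08, standard error 0.32). Abcb4, which exports phosphatidylcholine into bile from hepatocytes, and Pctp, the cytosolic transfer protein, were below background on all 6 arrays.

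**Figure D4:**
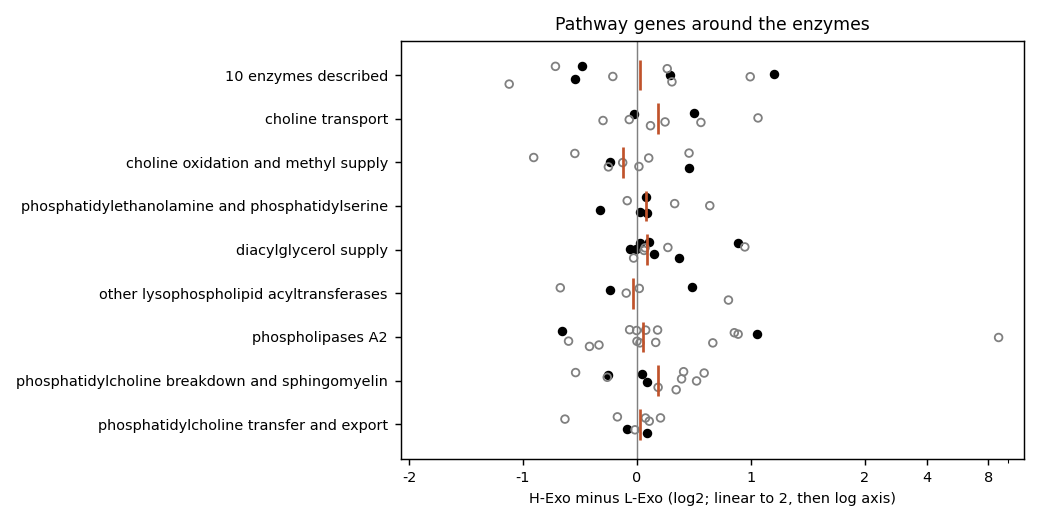
Log2 difference, H-Exo minus L-Exo, of each measured gene in the 8 pathway lists and of the 10 enzymes; filled points were above background on all 6 arrays, open points were not, orange bars are list medians, and the axis is linear up to 2 and logarithmic beyond. Medians lie between -0.12 and 0.19, and the 1 point far to the right is Pla2g4c.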

How the data were processed

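RNA from tissue labelled liver was hybridised to 6 Affymetrix arrays, 3 of L-Exo and 3 of H-Exo recipients. The deposited values are log2 signals that the authors computed by RMA in Transcriptome Analysis Console 4.0. RMA corrects background, normalizes between arrays and gives 1 log2 value per probe set, so a shift common to all genes would be removed. Its settings and the genome build were not found in the labels or methods (not given in the sources used here). Of rows there were 28846, of which 5222 were negative control probes and 1418 other controls. The remaining 22206 probe sets, 19572 of them with 1 gene symbol, were fitted by lmFit and eBayes of limma 3.58.1 under R 4.3.3 with no filter, and two-sided p-values were adjusted by Benjamini and Hochberg over all of them, with 0.05 as the threshold. Exact permutation tests compared single genes. The number of arrays limits the precision.

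The members and lists were chosen with earlier results of these data known. The text names all 10 members and, per list, genes that passed the test or else up to 3 with the highest mean and up to 2 with the largest difference among those above background on all 6 arrays; other genes were named after their values were seen. Alternatives were trend and robust priors, 2 filters on dim probe sets, quantile normalization, subtraction of medians, weights per array, a block for the replicate number, leaving out each array or both replicate 1 arrays, the methods' t-test, other thresholds and background percentiles, and averaging the probe sets of each gene. Upstream sequences came from RefSeq, GRCm38.p6, and all 10 genes matched.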

Additional observations from a re-analysis of the deposited data

How the results depend on the processing

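No member passed an adjusted p under 0.05 or 0.1 by limma or by the methods' t-test after adjustment, with any alternative. At an unadjusted p under 0.05 there were 2, Lpcat2 and Lpcat4, by limma (901 probe sets in all) and 2 by the methods' t-test (921 in all). The count of 0 probe sets past limma's adjusted threshold (901 at an unadjusted p under 0.05) was 10 with array weights, 1 without both replicate 1 arrays and 0 to 1 when 1 array was left out, namely 1 when L-Exo replicate 1 and 1 when H-Exo replicate 3 was the one left out; none of these was a member. Over the alternatives that held them, Lpcat2 ran from 0.85 to 1.10 and Lpcat4 from -1.30 to -0.94 on the log2 scale. Since their groups do not overlap, leaving out arrays could not turn their sign, and several other alternatives leave the difference as it is. Cept1 turned from -0.54 to 0.18 without both replicate 1 arrays and ran from -0.92 to 0.00557 with 1 array left out (turning without L-Exo replicate 1), Chkb (0.31) ran from -0.11 (without L-Exo replicate 1) to 0.71, and Pemt from -0.21 to 0.12 with the mean of its 5 probe sets; the cause was not tested. The filter at the negative controls left 6 of the 10 enzymes, 3 of them higher in H-Exo. With the 99th percentile of the negative controls as background 1 of the 10, Lpcat3, was above it on all 6 arrays, in place of 4. Same-numbered arrays had deviation correlations of 0.22, 0.04 and 0.18, and differently numbered ones ran from -0.22 to 0.08. Smooth muscle medians fell from replicate 1 to replicate 3 in both groups. The labels give a number and name no pairs, and the main fit used none. With the replicate number as a block 0 probe sets and 0 members passed. A block cannot move a mean difference in this balanced design. It changed the standard error, for Lpcat3 from 0.74 to 0.53 and for Lpcat4 from 0.30 to 0.32.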
